A study of Mus musculus with 18 samples.

Results

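Collagen chain genes were read here across sorted fractions of mouse embryonic stem cells that had been differentiated toward midbrain dopamine neurons. The members are all genes of the authors' value table whose symbol has the form of a collagen chain (COL, a number, A, a number), which were 38 of 31441 genes. By structural class they comprised 11 fibrillar, 6 basement membrane (type IV), 3 beaded filament (type VI), 7 fibril-associated, 4 transmembrane, 3 network-forming, 2 multiplexin and 1 anchoring fibril chain, and 1 chain outside these classes.

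Collagens are secreted proteins whose chains wind around each other into a long helix. Fibrillar chains build the fibres of connective tissue and are made mainly by fibroblasts and other mesenchymal cells, so Col1a1 and Col3a1 are common markers of stromal cells. Type IV chains form the sheet-like network of basement membranes, which line epithelia, vessels and the surface of the brain, and type VI chains form beaded filaments close to cells. In neural cultures from stem cells, fibrillar and type VI chains are used as a sign of non-neural cells, whereas early neuroepithelium itself can express Col2a1, the chain best known from cartilage.

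The cells came from 3 lines of J1 mouse embryonic stem cells (strain J1), each carrying a bacterial artificial chromosome transgene with a fluorescent reporter, Hes5::GFP, Nurr1::GFP or Pitx3::YFP. Hes5 is a Notch-induced repressor of neural progenitors, Nurr1 (gene symbol Nr4a2) is a nuclear receptor of young dopamine neurons, and Pitx3 is a homeobox factor of later dopamine neurons. Fluorescent and non-fluorescent cells were separated by flow sorting on days 14 to 15, and total RNA was hybridised to Illumina mouse bead arrays, giving 6 groups (Hes5, Nurr1 and Pitx3 positive and negative) of 3 arrays. No group was undifferentiated, every group descended from a reporter transgenic line, and each reporter was represented by 1 line, so that reporter and line cannot be told apart between lines. The labels do not say which array was of day 14, or whether replicates were separate differentiations, so p-values here reflect only how far these arrays scatter, which may be technical.

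The 18 arrays were alike in signal, with a median probe intensity of 40.6 to 60.2 and 33.5% to 37.4% of probes detected. The labels of Hes5 negative replicate 2 conflict, since the title and genotype give a GFP-negative fraction and the source name a positive one. The array stayed in the negative group, and the calls of the Hes5 sort are also given without it. Its level of Hes5, the gene that the reporter stands for, was 11.15, against 9.71 and 9.51 in the other Hes5 negative arrays and 11.96 to 12.47 in the positive ones. Its summed linear intensity over 8 pluripotency genes was 1552, inside the range of the Hes5 positive arrays (1381 to 2551), where the other negative arrays held 20820 and 21514. Over 6 radial glia and progenitor genes its sum was 20697, also inside the positive range (19497 to 23504), against 8821 and 13222. Hes5 negative replicate 1 was the highest of the 18 arrays for 18.38% of all genes tested and the lowest for 19.21%, and Pitx3 positive replicate 2 was the highest for 17.53% and the lowest for 18.09%. The defining genes of the intended cell type were present: Th, the rate-limiting enzyme of dopamine synthesis, had a normalized log2 intensity of 13.46 ± 0.74 (SD, n = 3) in Pitx3 positive and 12.52 ± 0.61 in Nurr1 positive cells, against 8.65 ± 1.0 and 9.43 ± 1.27 in the matching negative cells. Pou5f1, a pluripotency factor, was above background in 9 of 18 arrays.

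Of the 38 members, 37 could be tied to probes and 21 had a probe that passed the filter on dim probes (a detection p-value under 0.01 in at least 3 arrays). Tested members were 6 of 11 fibrillar chains (Col1a1, Col2a1, Col3a1, Col5a1, Col5a2 and Col27a1), 4 of 6 type IV chains (Col4a1, Col4a2, Col4a5 and Col4a6), 3 of 3 type VI chains and 3 of 7 fibril-associated chains (Col9a2, Col12a1 and Col16a1). The others were Col8a1 and Col8a2 of the network-forming class, Col7a1, Col18a1 and Col23a1. A further 16 were too dim, namely Col1a2, Col5a3, Col11a1, Col11a2, Col24a1, Col4a3, Col4a4, Col9a1, Col9a3, Col14a1, Col19a1, Col10a1, Col15a1, Col13a1, Col17a1 and Col28a1, and Col25a1 was not tied to a probe (5.23 to 5.93 over the 18 arrays in the authors' deposited table). A member tested for its level in some groups alone may owe its place to the groups where it was bright, so the counts below describe the tested members and not the whole family. In sorted bulk RNA, fewer cells that express a gene and less of its RNA in each cell cannot be told apart.

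The tested collagen chains varied widely between arrays. Their median range over the 18 arrays was 3.70 on the log2 scale, against 1.41 for all 12659 genes tested. Hes5 negative cells had the highest group mean for 10 of 21 members, and the lowest group mean lay in Pitx3 positive cells for 13 and in Hes5 positive cells for 7. Single arrays weighed in this: Hes5 negative replicate 3 was the highest of all arrays for 9 of 21 members, and Pitx3 positive replicate 2 was the lowest for 14 of 21.

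**Figure D1:**
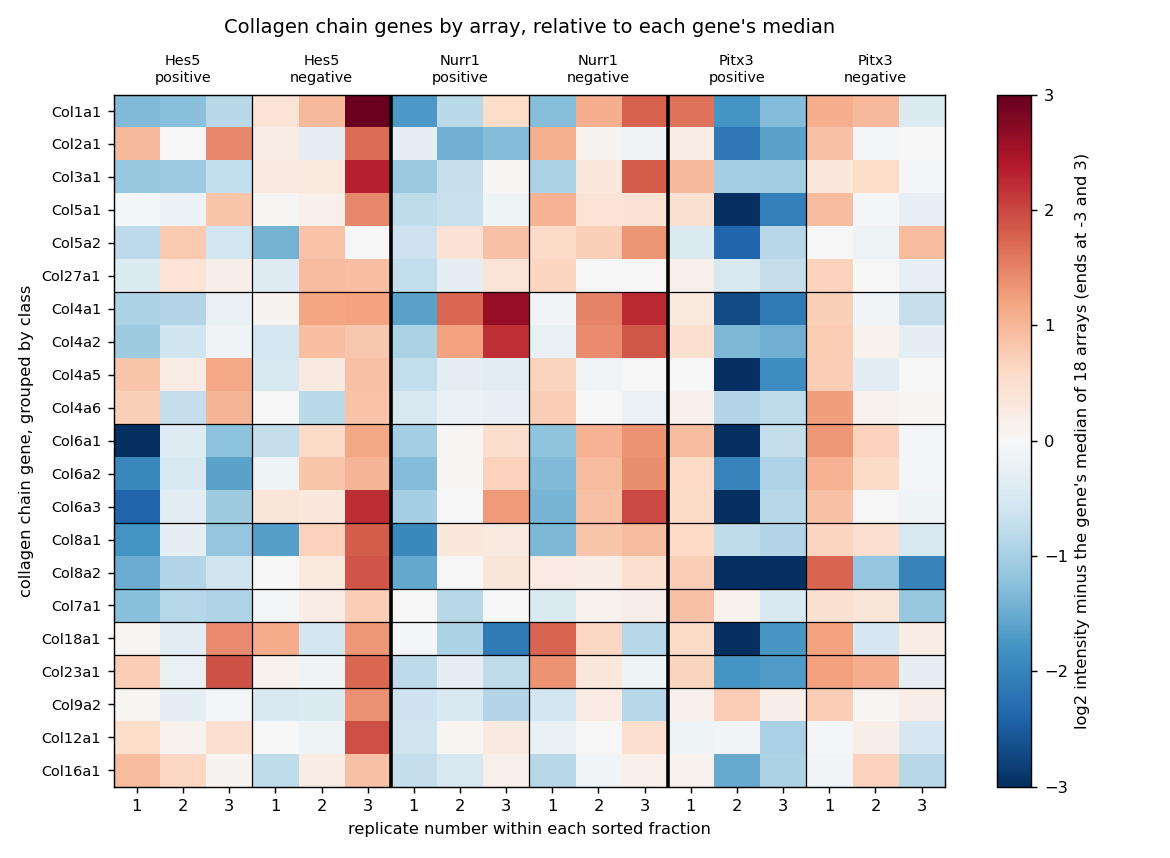
Normalized log2 intensity of the 21 tested collagen chain genes (rows, by class) in each of the 18 arrays (columns, by group and replicate), as the difference from each gene's own median over the 18 arrays, with the colour scale ending at -3 and 3. Pitx3 positive replicate 2 holds the lowest value of 14 of the 21 genes and Hes5 negative replicate 3 the highest value of 9.

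Positive and negative cells of each line were compared to ask which sorted fraction carries collagen RNA. Differences are positive minus negative, in log2 units, and a gene was called where limma's p, adjusted by Benjamini-Hochberg across the 12659 genes tested, lay under 0.05. The fractions of equal number proved to be pairs, so each sort is given in the fit of group means and in a paired fit that has the pair as a block. In the fit of group means 0 of 21 members were called in any of the sorts, where 0.0158% of all genes were called in the Hes5 line, 0.0237% in the Nurr1 line and 0.442% in the Pitx3 line. At an unadjusted p under 0.05, 5 members were lower in Hes5 positive cells, where 2.99% of all genes were, 1 in Nurr1 positive cells (2.49% of all genes) and 5 in Pitx3 positive cells (7.63%). None of the 21 was higher at that p in these sorts, against 3.51%, 5.81% and 6.91% of all genes.

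In the paired fit 9 of 21 collagen chains fell in Pitx3 positive cells and 0 rose, where 8.53% of all genes fell and 6.08% rose. They were the fibrillar chains Col2a1, Col5a1 and Col5a2, the type IV chains Col4a2, Col4a5 and Col4a6, and Col8a2, Col18a1 and Col23a1. Each of the 9 was lower in the positive fraction of 3 of 3 pairs, which a call by a paired test on these pairs favours. Over all 21 members, 16 were lower in 3 of 3 pairs, and the share of all genes is not given. The median difference of the 21 members was -1.30 (19 lower, 2 higher), against 0.01 for all genes. These calls rested on pairs 2 and 3: leaving out either of these Pitx3 pairs left 0 members called, while 9 were called without pair 1 and 5 without Nurr1 pair 2. The 9 called without pair 1 took in Col4a1 and Col6a2 in place of Col4a6 and Col8a2. For the fits without a pair, the share of all genes called is not given. Pair 2 had the largest drop for 17 of 21 members and pair 1 the smallest for 17 of 21.

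The same paired fit called 0 of 21 members in the Hes5 sort and 0 of 21 in the Nurr1 sort, where 1.24% and 0.774% of all genes were called. At an unadjusted p under 0.05 it held 10 members in the Hes5 sort, all lower, where 9.61% of all genes were lower at that p, and 4 in the Nurr1 sort, all lower, where 11.5% were. The median member difference was -0.42 in the Hes5 line (15 lower, 6 higher) and -0.55 in the Nurr1 line (21 lower, 0 higher), against 0.03 and -0.02 for all genes. All 3 arrays of the positive fraction lay below all 3 of the negative fraction for 7 members in the Hes5 line, where 4.08% of all genes did, for 5 in the Nurr1 line, where 11.3% did, and for 1 in the Pitx3 line, where 7.58% did.

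**Figure D2:**
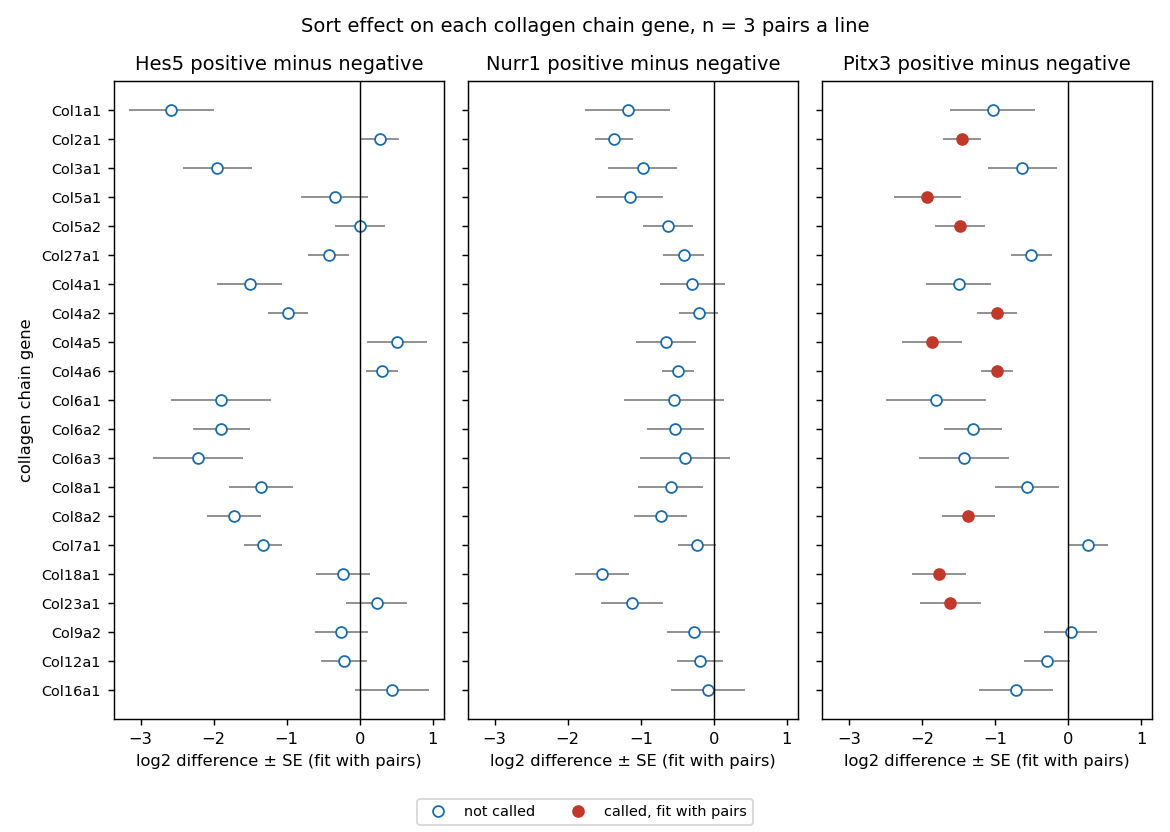
Difference between positive and negative cells (log2, paired fit, error bars are standard errors) for the 21 tested collagen chain genes in the Hes5, Nurr1 and Pitx3 lines, with the genes called in that fit in red. Red points appear in the Pitx3 line alone, 9 of them, all below 0, while Col1a1 has its largest difference, -2.58, in the Hes5 line. Positive cells were above background in no array for Col3a1 in the Hes5 and Nurr1 lines, Col4a6 in the Nurr1 and Pitx3 lines, and Col12a1 and Col27a1 in the Pitx3 line, so the points drawn there are not measured sizes.

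Among the fibrillar chains, Col1a1 and Col3a1 separated the fractions of the Hes5 line and were not called. Col1a1 encodes a chain of type I collagen, the main collagen of bone, tendon and skin. Its level was 6.94, 7.51 and 9.50 in Hes5 negative replicates 1, 2 and 3, and 5.21, 5.29 and 5.71 in Hes5 positive replicates. The groups did not overlap, and the difference was -2.58 ± 0.58 (SE) with an adjusted p of 0.0659 in the paired fit and 0.640 in the fit of group means. In the Nurr1 line it was 5.25, 7.62 and 8.30 in negative and 4.82, 5.73 and 7.09 in positive cells. In the Pitx3 line it was 7.63, 7.50 and 6.13 in negative and 8.17, 4.75 and 5.24 in positive cells. Each Nurr1 pair was lower on the positive side, but the groups overlapped (difference -1.18, paired adjusted p 0.250), and in the Pitx3 line pair 1 ran the other way (difference -1.03, adjusted p 0.248). A second probe of Col1a1 also passed the filter, above background in 5 arrays. Its differences were -0.18, -0.12 and -0.24 in the Hes5, Nurr1 and Pitx3 lines, so the sizes above rest on the brighter probe.

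Col3a1, the chain of type III collagen in vessel walls and loose connective tissue, was above background in 6 of 18 arrays. It read 5.88, 5.90 and 7.94 in Hes5 negative cells and 4.47, 4.52 and 4.89 in Hes5 positive cells, where no array was above background. Hes5 positive cells were therefore at least 1.72-fold lower, with an adjusted p of 0.0773 in the paired fit. Col3a1 was also above background in 0 of 3 Nurr1 positive arrays, at 4.51, 4.92 and 5.65, against 4.66, 5.92 and 7.42 in Nurr1 negative cells (at least 1.11-fold lower, adjusted p 0.243). In the Pitx3 line it was 5.92, 6.18 and 5.58 in negative and 6.59, 4.63 and 4.57 in positive cells, so that replicate 1 of the positive fraction stood above every negative array (difference -0.63, adjusted p 0.383). Col1a2, the partner chain of Col1a1 in type I collagen, was above background in 1 array, Hes5 negative replicate 3, at 7.35. The highest arrays of Col1a1 and Col3a1 were also Hes5 negative replicate 3.

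The promoter of Col3a1 is shown because this marker gene differs in its motifs from the type IV chains given further on. The window runs from 250 bases before to 50 bases after the start site of the RefSeq transcript (GRCm38.p6, chr1:45311288-45311587, plus strand), and capitals mark the only match to the searched motifs. Those were the letters of the TATA box, TATAAA, of the CCAAT box, and of the GC box, GGGCGG, each searched on both strands. The TATAAA match lies near the middle of the window, well before the start site, and whether it works as a TATA box was not tested.
Col3a1: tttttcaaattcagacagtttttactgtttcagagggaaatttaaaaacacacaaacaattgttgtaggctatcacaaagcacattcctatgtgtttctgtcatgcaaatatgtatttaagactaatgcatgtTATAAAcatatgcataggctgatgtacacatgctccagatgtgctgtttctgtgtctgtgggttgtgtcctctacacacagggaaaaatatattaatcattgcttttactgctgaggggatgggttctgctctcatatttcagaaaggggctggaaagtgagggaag
TATAAA was found in 13.6% of 32851 promoter windows of all genes and in 5 of the 34 windows of collagen chain genes (14.7%). Windows were given for 31 of 38 members, with more than 1 window for 3 of them.

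Col2a1, Col5a1 and Col5a2 made up the fibrillar chains that fell in Pitx3 positive cells. Col2a1 read 10.70, 9.79 and 9.81 in Pitx3 negative and 10.05, 7.69 and 8.22 in Pitx3 positive cells. It fell by 1.45 ± 0.26 on the log2 scale (2.73-fold, paired adjusted p 0.0159), lower in 3 of 3 pairs. For the Nurr1 line its levels were 10.90, 9.92 and 9.72 in negative and 9.53, 8.40 and 8.53 in positive cells, groups that did not overlap, with a difference of -1.36 ± 0.26 and a paired adjusted p of 0.0549. In the Hes5 line it ran from 9.55 to 11.49 in negative and from 9.84 to 11.28 in positive cells, a difference of 0.28 (adjusted p 0.565). The difference between the Pitx3 and Hes5 sort effects was -1.72 ± 0.37 in the paired fit (adjusted p 0.0427), and 1 of 21 members fell in this comparison, where 2% of all genes did. In the fit of group means the adjusted p was 0.717. Leaving out Pitx3 pair 1 kept the call (adjusted p 0.0123), and leaving out any of the other 8 pairs ended it (adjusted p 0.0586 to 0.170).

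Sox9, a regulator of Col2a1 in cartilage and a gene of neural progenitors, was the 1 gene of the cartilage and bone list (8 genes) that could be tested, and 5 of that list (Acan, Matn1, Comp, Runx2 and Ibsp) were above background in no array. The summed linear level of the list, which rested on Sox9, was 5426 to 7511 in Pitx3 negative and 454 to 2868 in Pitx3 positive cells. In the Hes5 line it was 2084 to 4794 in negative and 6001 to 8759 in positive cells. Sox9 itself fell by 2.34 in Pitx3 positive cells (paired adjusted p 0.0180). The part of cells with Sox9 in the Col2a1 result was not tested.

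Type V chains join type I fibrils and set their thickness. The tested ones, Col5a1 and Col5a2, both fell in Pitx3 positive cells, and Col5a3 was too dim to test. Col5a1 was 10.35, 9.37 and 9.17 in Pitx3 negative and 9.88, 5.88 and 7.37 in positive cells. It fell by 1.92 ± 0.46 (3.8-fold, paired adjusted p 0.0280), the largest drop among the 9 called members, with a pair 1 difference of -0.48 and a pair 2 difference of -3.50. Col5a2 was 6.93, 6.78 and 7.87 in negative and 6.50, 4.54 and 6.10 in positive cells. It was the 1 member whose Pitx3 groups did not overlap, and it fell by 1.48 ± 0.35 (2.78-fold, adjusted p 0.0265). In the Nurr1 line Col5a1 ran from 9.84 to 10.46 in negative and from 8.67 to 9.29 in positive cells without overlap (difference -1.15, adjusted p 0.171), and Col5a2 differed by -0.63 (adjusted p 0.292). In the Hes5 line their differences were -0.34 and 0.01 (adjusted p 0.693 and 0.994). Col27a1, a fibrillar chain of cartilage, was above background in 6 of 18 arrays and differed by -0.42 in each of the Hes5 and Nurr1 lines. It was above background in 0 of 3 Pitx3 positive arrays, at 4.76 to 5.64 against 5.24 to 6.16 in negative cells, and the bound lay under 1. The adjusted p values were 0.242 to 0.407.

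**Figure D3:**
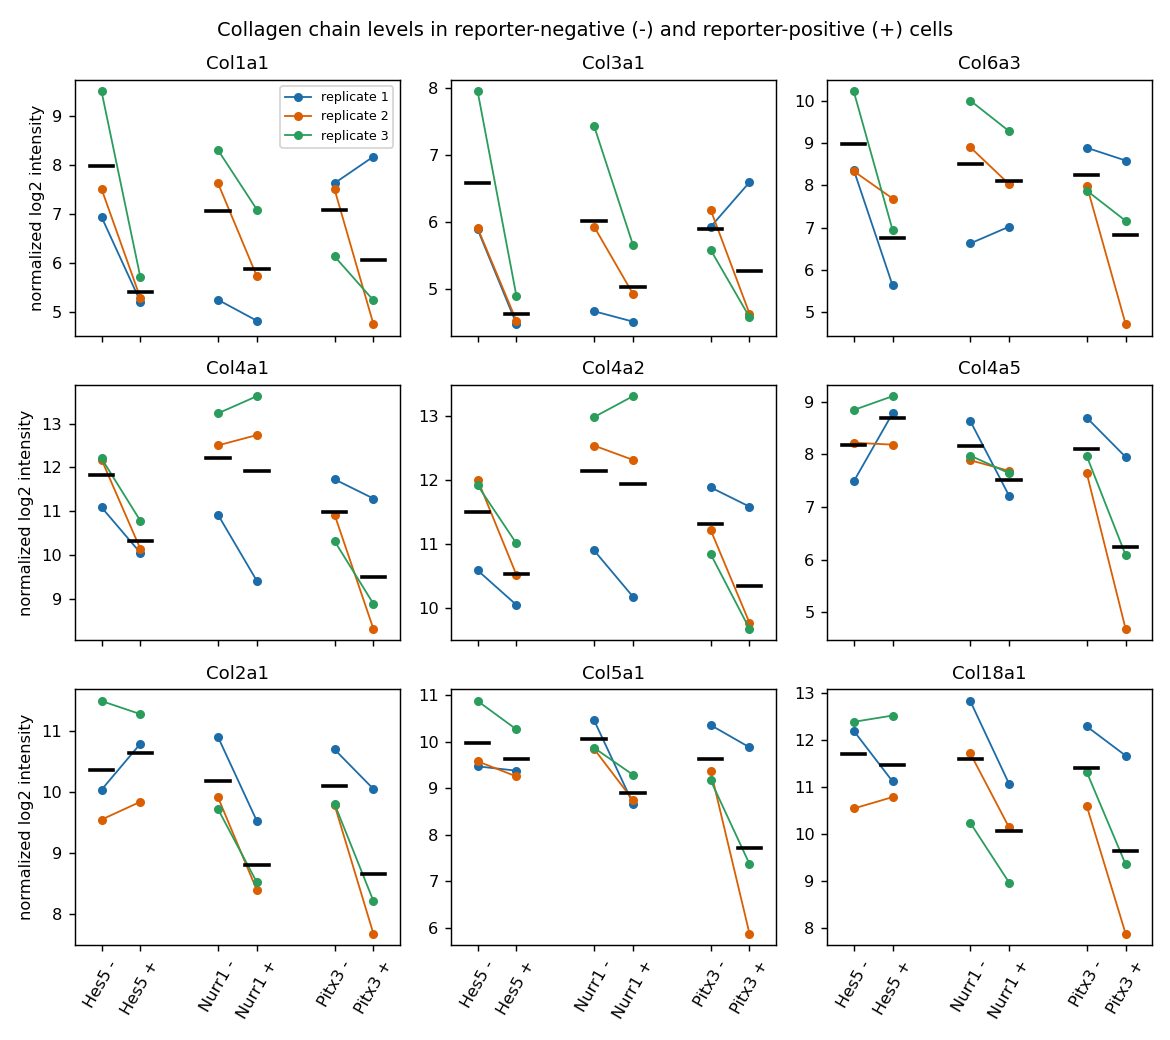
Normalized log2 intensity of 9 collagen chain genes in the 6 groups, where each point is an array, lines join replicates of equal number and the black bar is the group mean of 3 arrays. Col1a1 and Col3a1 separate in the Hes5 line, Col2a1 in the Nurr1 line, and Col4a5 reads 4.69 in Pitx3 positive replicate 2.

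Col4a1 and Col4a2 assemble into the common network of basement membranes, and Col4a5 and Col4a6 into the network of smooth muscle and some epithelia. Col4a3 and Col4a4, the partners of Col4a5 in kidney and lung, were above background in no array. Col4a1 and Col4a2 lie head to head on chromosome 8 (RefSeq genes at 11198423 to 11312889 and 11312805 to 11449287, GRCm38.p6), with start sites 21 bases apart, and Col4a5 and Col4a6 lie head to head on chromosome X with start sites 1343 bases apart. The promoter windows of the chains named most below are shown, with matches to CCAAT and GGGCGG on either strand in capitals, where a match on the other strand is printed as its reverse complement. They are Col4a1 at chr8:11312777-11313076 on the minus strand, Col4a2 at chr8:11312555-11312854 on the plus strand, and Col4a5 at chrX:141475169-141475468 on the plus strand.
Col4a1: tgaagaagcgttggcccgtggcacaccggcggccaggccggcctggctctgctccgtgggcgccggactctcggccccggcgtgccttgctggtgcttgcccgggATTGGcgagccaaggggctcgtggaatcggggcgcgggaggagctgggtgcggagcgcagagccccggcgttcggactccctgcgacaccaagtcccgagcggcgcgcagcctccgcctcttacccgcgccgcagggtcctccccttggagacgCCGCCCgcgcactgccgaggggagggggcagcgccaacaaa
Col4a2: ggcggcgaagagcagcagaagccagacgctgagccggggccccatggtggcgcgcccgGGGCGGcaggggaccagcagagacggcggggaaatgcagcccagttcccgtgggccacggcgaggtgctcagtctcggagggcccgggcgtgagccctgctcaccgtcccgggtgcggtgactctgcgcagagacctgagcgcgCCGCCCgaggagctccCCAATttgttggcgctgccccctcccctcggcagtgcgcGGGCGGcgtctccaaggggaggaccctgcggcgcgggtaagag
Col4a5: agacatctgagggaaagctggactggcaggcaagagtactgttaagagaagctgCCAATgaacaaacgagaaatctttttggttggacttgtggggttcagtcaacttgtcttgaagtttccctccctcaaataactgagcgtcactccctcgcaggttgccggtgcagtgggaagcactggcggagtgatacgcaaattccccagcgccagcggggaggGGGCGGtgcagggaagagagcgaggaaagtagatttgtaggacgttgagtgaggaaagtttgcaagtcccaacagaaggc
The windows of Col4a1 and Col4a2 share 78 bases, since the genes run in opposite directions from a common start region, so a match in the shared stretch is printed in both. GGGCGG was found in 35.7% of all windows and in 20 of the 34 windows of collagen chain genes (58.8%), and CCAAT in 37.4% and 12 of 34 (35.3%). A match is a description of the letters in these windows.

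Col4a1 and Col4a2 were high in the same arrays. In the Nurr1 line Col4a1 was 10.92, 12.51 and 13.24 in negative and 9.41, 12.74 and 13.63 in positive cells, and Col4a2 was 10.90, 12.54 and 12.98 in negative and 10.17, 12.31 and 13.31 in positive cells. Replicates 2 and 3 of both fractions held the highest levels of both genes in the whole series, and positive and negative cells overlapped (differences -0.29 and -0.21, paired adjusted p 0.703 and 0.658). In the same 4 arrays the summed linear level of the visceral and parietal endoderm list was 2888 and 5324 in negative and 2621 and 5626 in positive cells, against 335 to 2065 in the other 14. Parietal endoderm is known for a thick basement membrane rich in these chains. Of that list 6 of 10 genes could be tested, and Afp and Apoa1, which define visceral endoderm, were above background in no array. Lama1, a basement membrane laminin chain of the same list, made up the larger part of these 4 sums. Lama1 read 11.02 and 11.90 in those negative and 10.86 and 11.97 in those positive arrays, against 6.72 to 10.41 elsewhere. The list's median log2 level was 7.10 and 8.45 in those negative and 7.43 and 8.64 in those positive arrays, against 5.08 to 6.66 elsewhere. The part of endoderm cells in these levels was not tested.

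In the Hes5 line Col4a1 was 11.09, 12.18 and 12.21 in negative and 10.05, 10.14 and 10.78 in positive cells. The groups did not overlap, with a difference of -1.50 ± 0.44 and a paired adjusted p of 0.108. Col4a2 was 11.50 ± 0.79 (SD, n = 3) in negative and 10.52 ± 0.48 in positive cells (difference -0.98, adjusted p 0.0958). In the Pitx3 line Col4a1 was 11.73, 10.93 and 10.32 against 11.29, 8.32 and 8.89, a difference of -1.49 ± 0.44 with an adjusted p of 0.0541. Col4a2, at 11.88, 11.22 and 10.84 against 11.58, 9.77 and 9.67, fell by 0.97 ± 0.27 (1.96-fold, adjusted p 0.0433). The partner with the larger difference was thus the one that missed the threshold.

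Col4a5 was called lower in Pitx3 positive cells in more than 1 comparison, and these share the same Pitx3 positive arrays. It read 8.70, 7.64 and 7.97 in Pitx3 negative and 7.95, 4.69 and 6.09 in Pitx3 positive cells, and fell by 1.86 ± 0.41 (3.63-fold, paired adjusted p 0.0228). Hes5 positive cells held 8.78, 8.19 and 9.11, above every Pitx3 positive array. Between these positive fractions Col4a5 fell by 2.45 ± 0.60 (5.46-fold, adjusted p 0.0345), the 1 of 21 members called there, where 2.26% of all genes fell and 2.05% rose. The call held in 14 of 18 fits without 1 array. It ended without Pitx3 positive replicate 2 (difference -1.67, adjusted p 0.178), Pitx3 positive replicate 3 (-2.37, 0.111), Hes5 positive replicate 1 (-2.40, 0.113) and Hes5 positive replicate 3 (-2.24, 0.130). In the Nurr1 line Col4a5 was 8.64, 7.89 and 7.98 in negative and 7.22, 7.69 and 7.64 in positive cells, without overlap (difference -0.65, adjusted p 0.354), and in the Hes5 line it differed by 0.51 (adjusted p 0.499). Pitx3 positive replicate 1, at 7.95, lay above Pitx3 negative replicate 2 and above every Nurr1 positive array. Col4a5 was not called between Pitx3 positive and Nurr1 positive cells.

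Col4a6, its neighbour, was above background in 5 of 18 arrays and in 0 of 3 Pitx3 positive arrays. It was 6.72, 5.59 and 5.52 in Pitx3 negative and 5.61, 4.60 and 4.71 in positive cells. Its call in the paired fit (adjusted p 0.0242) carries no fold, since 1 Pitx3 negative array was above background and the bound lay under 1. In the Hes5 line it was the 1 member higher in the positive fraction of 3 of 3 pairs (difference 0.31, adjusted p 0.441).

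The type VI chains, assembled from the products of Col6a1, Col6a2 and Col6a3, had lower levels in positive cells of the Hes5 and Pitx3 lines, and 0 of 3 passed the test in either. Col6a3 was 8.37, 8.34 and 10.22 in Hes5 negative and 5.64, 7.69 and 6.95 in Hes5 positive cells. The groups did not overlap (difference -2.22 ± 0.62, paired adjusted p 0.0982). Col6a2 was 6.53, 7.52 and 7.70 against 4.75, 6.22 and 5.09, also without overlap (difference -1.90 ± 0.39, adjusted p 0.0587). Col6a1 was 8.62, 9.92 and 10.49 against 6.27, 8.94 and 8.11 (difference -1.90 ± 0.68, adjusted p 0.159). All 3 chains were lower in 3 of 3 Hes5 pairs and in 3 of 3 Pitx3 pairs. In the Pitx3 line the differences were -1.81 for Col6a1, -1.30 for Col6a2 and -1.43 for Col6a3, with adjusted p values of 0.105, 0.0561 and 0.142. Pitx3 positive replicate 2 held the lowest level of all 18 arrays for each of the 3, at 5.62, 4.67 and 4.73. In the Nurr1 line the differences were -0.55, -0.53 and -0.40 (adjusted p 0.428 to 0.708), and no chain was lower in all pairs.

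The array with the conflicting labels bore on the Hes5 sort. Without Hes5 pair 2, which holds it, 4 of 21 members passed the threshold in the paired fit, all lower in positive cells. They were Col6a3 (difference -3.0, adjusted p 0.0305), Col6a2 (-2.19, 0.0321), Col8a2 (-1.99, 0.0345) and Col7a1 (-1.44, 0.0374). Without Pitx3 pair 2 Col6a2 alone passed (adjusted p 0.0399). In the fit of group means, leaving out Hes5 negative replicate 2 left 0 members called. The shares of all genes called in these leave-out fits are not given, so the counts have no background beside them.

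The network-forming chains Col8a1 and Col8a2, known from the membrane under the corneal endothelium and from vessel walls, were lower in positive cells in all 3 pairs of all 3 lines. Col8a2 was 8.09, 8.39 and 9.96 in Hes5 negative and 6.59, 7.21 and 7.49 in Hes5 positive cells, without overlap (difference -1.72 ± 0.36, paired adjusted p 0.0611). In the Pitx3 line it was 9.82, 6.93 and 6.08 in negative and 8.82, 4.85 and 5.07 in positive cells, and fell by 1.36 ± 0.36 (2.58-fold, adjusted p 0.0390). Only 1 of 3 Pitx3 positive arrays was above background for Col8a2, so this fold rests partly on readings at background. Replicate 1 of that line was far above the other two in both fractions, and the groups overlapped while each pair was lower by 1.01 or more. Col8a1 differed by -1.35 in the Hes5, -0.59 in the Nurr1 and -0.56 in the Pitx3 line, with adjusted p values of 0.134, 0.429 and 0.402.

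Col7a1, which forms the anchoring fibrils beneath skin epithelium, was above background in all 18 arrays. It was 7.13, 7.38 and 7.88 in Hes5 negative and 5.89, 6.29 and 6.23 in Hes5 positive cells. The groups did not overlap (difference -1.32 ± 0.26, paired adjusted p 0.0514). In the Pitx3 line it leaned the other way, 7.60, 7.52 and 6.02 in negative against 8.03, 7.25 and 6.71 in positive cells (difference 0.28, adjusted p 0.488). The difference of the Pitx3 and Hes5 sort effects was 1.60 ± 0.37 with an adjusted p of 0.0547.

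Col18a1, the basement membrane collagen that gives rise to endostatin, and Col23a1, a membrane-anchored collagen, fell in Pitx3 positive cells. Col18a1 was 12.29, 10.60 and 11.32 in Pitx3 negative and 11.67, 7.89 and 9.36 in positive cells, and fell by 1.77 ± 0.37 (3.40-fold, paired adjusted p 0.0201). Its levels in the Nurr1 line were 12.84, 11.72 and 10.24 in negative and 11.07, 10.14 and 8.97 in positive cells, with pair differences of -1.76, -1.58 and -1.27 (difference -1.54, adjusted p 0.0772). Col23a1 was 7.73, 7.59 and 6.23 in Pitx3 negative and 7.18, 4.72 and 4.81 in positive cells, and fell by 1.61 ± 0.42 (3.06-fold, adjusted p 0.0363). Only 1 of 3 Pitx3 positive arrays was above background for Col23a1, so this fold rests partly on readings at background. Its Nurr1 groups did not overlap (difference -1.12, adjusted p 0.155). In the Hes5 line Col18a1 differed by -0.23 and Col23a1 by 0.23 (adjusted p 0.742 and 0.776).

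No fibril-associated chain was called, with class medians of -0.21 and -0.19 in the Hes5 and Nurr1 lines. Col9a2, which decorates type II fibrils, was above background in all 18 arrays and differed by 0.03 in the Pitx3 line, where Col2a1 fell. Col16a1 differed by 0.45 in the Hes5, -0.08 in the Nurr1 and -0.71 in the Pitx3 line, and Col12a1, a partner of type I fibrils, by -0.21 in the Hes5 and -0.19 in the Nurr1 line and was above background in 0 of 3 Pitx3 positive arrays, with paired adjusted p values from 0.355 to 0.961 for these genes. Among the 9 members with several probes that passed the filter, those of Col12a1 disagreed in direction in the Nurr1 line. Probes that failed the filter were not compared.

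The 9 Pitx3 calls shrank without pair 2. With that pair left out, the paired differences were -1.31 for Col4a5, -1.29 for Col18a1, -1.14 for Col5a1, -1.12 for Col2a1, -1.10 for Col5a2, -1.01 for Col8a2, -0.99 for Col23a1 and -0.73 for Col4a2, and the adjusted p values of the 9, with Col4a6, were 0.111 to 0.256. With pair 3 left out they ran from -0.88 for Col4a2 to -1.99 for Col5a1, and the adjusted p values were 0.120 to 0.207. Without Pitx3 positive replicate 1 in the fit of group means, 4 members were called where 0 had been, Col23a1, Col2a1, Col4a5 and Col5a1. All remained lower in positive cells in each of these fits, for which the shares of all genes called are not given.

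Stromal cell markers other than collagens were read beside the chains. Of 10 genes on the fibroblast list 8 could be tested, Postn and Prrx1 were above background in no array, and Dcn, Twist1 and Fbn1 were above it in all 18. The summed linear level of the list was 3465 to 8946 in Hes5 negative and 2476 to 5345 in Hes5 positive cells, 2832 to 5064 and 1533 to 3737 in the Nurr1 line, and 4351 to 5653 and 1099 to 3899 in the Pitx3 line. These sums overlapped in the Hes5 and Nurr1 lines and did not in the Pitx3 line. Dcn alone made up the larger part of the Pitx3 negative sums, and the sums of the remaining genes overlapped. The list's median log2 level was 7.91 to 8.30 in Pitx3 negative and 5.44 to 7.82 in Pitx3 positive cells. It was 8.49 to 9.37 and 7.16 to 8.08 in the Hes5 line, and 7.38 to 8.51 and 6.86 to 8.47 in the Nurr1 line. In the paired fit 2 of 8 fell in the Pitx3 sort, where 8.53% of all genes did. In the Hes5 sort 1 of 8 fell and in the Nurr1 sort 0 of 8, where 1.24% and 0.774% of all genes were called. Median differences of the list were -0.96, -0.91 and -0.43 in the Pitx3, Hes5 and Nurr1 sorts.

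Lum, a proteoglycan of collagen fibrils, was 7.31, 7.64 and 9.29 in Hes5 negative and 4.79, 4.76 and 5.43 in Hes5 positive cells, which were above background in 0 arrays. It fell at least 4.87-fold (paired adjusted p 0.0460). Dcn, a related proteoglycan, was 11.63, 11.85 and 11.44 in Pitx3 negative and 10.78, 8.78 and 9.40 in positive cells, and fell by 1.99 ± 0.39 (3.96-fold, adjusted p 0.0180). Pdgfrb, a receptor of mural cells and fibroblasts, fell by 0.96 in the same sort (adjusted p 0.0456), with 1 of 3 positive arrays above background. Dcn differed by -1.45 in the Hes5 line (adjusted p 0.0926) and by -0.77 in the Nurr1 line (adjusted p 0.259). Thy1 differed by -1.68 in the Hes5 and -0.79 in the Pitx3 line (adjusted p 0.0881 and 0.242), and Pdgfra by 0.42 and -1.84 (adjusted p 0.704 and 0.0639). The part of fibroblasts in the collagen differences was not tested.

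**Figure D4:**
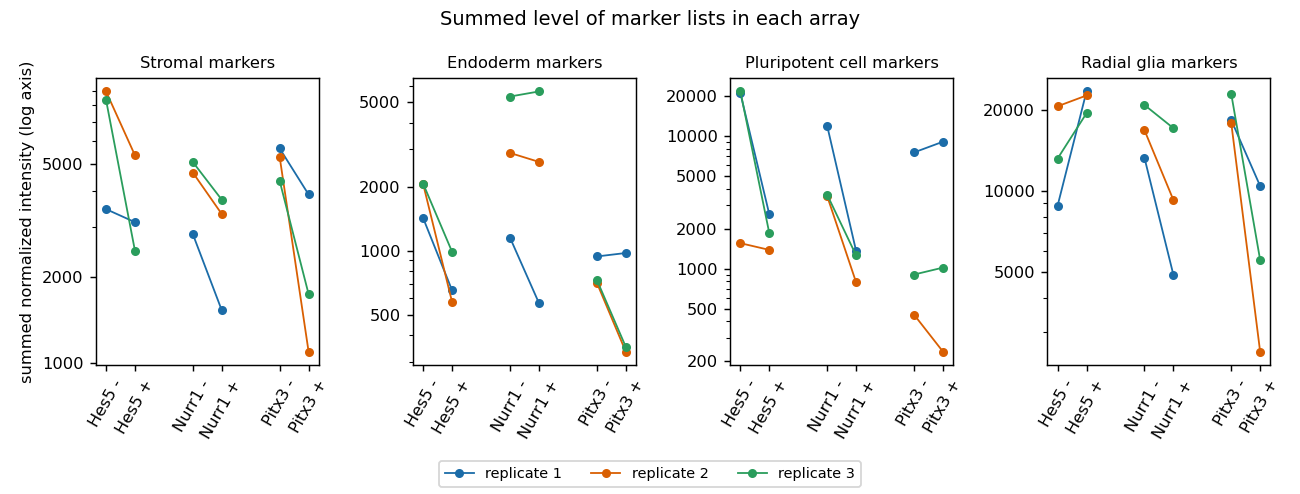
Summed linear intensity (log axis) of the marker lists of stromal cells, endoderm, pluripotent cells and radial glia in each of the 18 arrays, by group. The stromal sums are 4351 to 5653 in Pitx3 negative and 1099 to 3899 in Pitx3 positive cells, and the radial glia sums of these groups are 17989 to 23064 and 2527 to 10454. Dcn made up the larger part of the Pitx3 negative stromal sums.

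Other cell types also moved with the sorts. The paired fit called 8.53% of all genes lower and 6.08% higher in the Pitx3 sort. It called 1.24% in the Hes5 sort and 0.774% in the Nurr1 sort, in either direction. The radial glia and neural progenitor list summed to 17989 to 23064 in Pitx3 negative and 2527 to 10454 in Pitx3 positive cells, and 6 of its 6 tested genes (Pax6 was above background in no array) fell in the paired fit, led by Slc1a3 (-2.46, adjusted p 0.0190), Hes5 (-2.42, 0.0180) and Nes (-2.21, 0.0158). In the Hes5 sort the sums were 8821 to 20697 in negative and 19497 to 23504 in positive cells, and 0 of 6 were called. Without Hes5 negative replicate 2, whose labels conflict, the negative sums were 8821 to 13222. The pluripotent list, with 8 of 8 tested, summed to 1552 to 21514 in Hes5 negative and 1381 to 2551 in Hes5 positive cells, and 0 of 8 were called. Without that same array the Hes5 negative sums were 20820 to 21514. Of 6 dopamine neuron genes 5 rose in the Pitx3 sort and 3 in the Nurr1 sort, and of 5 tested neuronal genes 1 rose in the Pitx3 sort. The dopamine counts include the gene of the sorting reporter, Pitx3 in the Pitx3 sort and Nr4a2 in the Nurr1 sort. A rise of that gene follows from the sorting and is no separate result. The part of these cell types in the collagen differences was not tested.

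Smooth muscle genes (4 of 6 tested, Cnn1 above background in no array) summed to 1235 to 2716 in Hes5 negative and 310 to 1677 in Hes5 positive cells, and to 995 to 3091 and 174 to 2299 in the Pitx3 line. Tagln fell at least 1.14-fold in the Hes5 sort (paired adjusted p 0.0488). The endoderm list summed to 1422 to 2065 in Hes5 negative and 572 to 987 in Hes5 positive cells, where Dab2 fell by 1.57 (adjusted p 0.0477), and Sox17 was called lower (adjusted p 0.0386) with no array above background in positive cells and no bound above 1. Endothelial genes were scarce: 2 of 7 could be tested, Kdr, Emcn and Cd34 were above background in no array, and the sums stayed between 52 and 215 in all groups. Of the neural crest list 1 of 5 genes could be tested, Sox10, which fell in the Pitx3 sort (-2.21, adjusted p 0.0480). Of the meningeal and perivascular list 3 of 6 could be tested, and Zic1 fell there (-1.99, adjusted p 0.0180).

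Part of the machinery that makes collagen fell in Pitx3 positive cells in the paired fit. In the fit of group means 0 genes of the hydroxylase, chaperone, processing, basement membrane partner, matrix, receptor and degrading lists were called in this sort. Over these and the marker lists the paired fit called 32 genes in the Pitx3 sort, where 8.53% of all genes fell and 6.08% rose. Without pair 2, or without pair 3, the calls of Pitx3, Nr4a2 and Th were kept and the other 29 ended, while 29 of the 32 were kept without pair 1. Among prolyl and lysyl hydroxylases and their partners, 4 of 15 tested genes fell in the paired fit, where 8.53% of all genes did. P4ha3, a prolyl hydroxylase subunit, was 7.39, 7.11 and 7.08 in negative and 6.10, 4.66 and 5.33 in positive cells, and fell by 1.83 (3.56-fold, adjusted p 0.0133). Only 1 of 3 positive arrays was above background for P4ha3, so this fold rests partly on readings at background. Crtap fell by 1.15 (adjusted p 0.0364), and P3h1, its partner in the prolyl 3-hydroxylase complex, fell by 1.05 (adjusted p 0.0205). The fourth was Plod2, a lysyl hydroxylase. The median difference of the list was -0.41.

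Of the chaperone and secretion list 2 of 6 tested genes fell, both chaperones. Fkbp10 fell by 1.83 (adjusted p 0.0263), and Serpinh1, the collagen-specific chaperone, fell by 1.04 (adjusted p 0.0239). Serpinh1 was 12.87, 12.44 and 12.99 in Pitx3 negative and 12.37, 10.96 and 11.84 in positive cells, without overlap. Of the procollagen processing and crosslinking list 1 of 8 fell, where 8.53% of all genes did. It was Pcolce, an enhancer of propeptide removal (-1.31, adjusted p 0.0457). In the Hes5 sort 0 of 15 hydroxylases and 0 of 6 chaperones were called, where 1.24% of all genes were. Pcolce2 alone fell there among the 8 processing genes (-0.75, adjusted p 0.0439).

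Partners of type IV collagen in the basement membrane fell in the Pitx3 sort for 4 of 12 tested genes, where 8.53% of all genes fell. The list median was -1.16. Sparc, a collagen-binding secreted protein, was 11.72, 11.28 and 10.79 in negative and 10.99, 7.26 and 8.77 in positive cells, and fell by 2.25 (4.77-fold, paired adjusted p 0.0286). The laminin chain Lamb2 fell by 1.67 (adjusted p 0.0211) and Hspg2, perlecan, by 1.62 (adjusted p 0.0174). Pair 2 again held the largest drop of Sparc.

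Of the collagen-binding matrix list 1 of 9 tested genes fell in the Pitx3 sort, Dcn, where 8.53% of all genes fell. In the Hes5 sort 2 of 9 fell, Lum and Tgfbi, where 1.24% of all genes were called. Tgfbi, a secreted protein that binds several collagens, was 8.60, 8.29 and 10.54 in Hes5 negative and 5.97, 5.89 and 6.46 in Hes5 positive cells, and fell by 3.03 (8.18-fold, paired adjusted p 0.0301). Of the receptors 3 of 9 could be tested. Itga11, the integrin chain that binds fibrillar collagen on fibroblasts, fell at least 2.33-fold in Hes5 positive (adjusted p 0.0170) and at least 2.14-fold in Nurr1 positive cells (adjusted p 0.0366), both above background in 0 arrays. Its difference in the Pitx3 line was 0.14. The test of the Pitx3 minus Hes5 difference of its sort effects had a paired adjusted p of 0.0239, and no size is given since Hes5 positive cells were not above background. Ddr1, a receptor kinase for collagen, fell by 0.59 in the Pitx3 sort (adjusted p 0.0446).

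Of the collagen-degrading list 3 of 8 tested genes fell in the Pitx3 sort, where 8.53% of all genes fell. They were the proteases Mmp2 and Mmp14 and the inhibitor Timp3. Mmp2 fell by 1.48, Mmp14 fell by 1.34 and Timp3 fell by 1.17 (paired adjusted p 0.0465, 0.0216 and 0.0347). In the Nurr1 sort Itga11 was the 1 gene called among these 7 lists, and its call ended when any of the 3 Nurr1 pairs was left out (adjusted p 0.0534 to 0.273). All 7 genes of the collagen and marker lists that were called in the Hes5 sort, Lum, Tgfbi, Itga11, Tagln, Dab2, Sox17 and Pcolce2, stayed called without Hes5 pair 2 (adjusted p 0.00826 to 0.0393), and 0 of the 7 did without pair 1 (0.0805 to 0.185) or without pair 3 (0.134 to 0.245). Between Pitx3 positive and Hes5 positive cells Ddr1 fell by 1.84 (adjusted p 0.00988), Mmp14 fell by 1.74 (0.0412) and Timp3 fell by 1.44 (0.0492).

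The positive fractions of the lines were compared to follow collagen chains along the order progenitor, young neuron, later neuron. Nurr1 positive against Hes5 positive cells gave 0 of 21 called in limma (0.419% of all genes), with a median difference of 0.40 (11 higher, 10 lower), and 1 member at an unadjusted p under 0.05, Col2a1 (-1.82, adjusted p 0.229), where 13.7% of all genes lay under that p. The lowest after it were Col18a1 (-1.42), Col23a1 (-1.42) and Col4a5 (-1.18), and the highest were Col4a1 (1.60), Col6a1 (1.42), Col4a2 (1.41) and Col6a3 (1.35). None passed the threshold. Pitx3 positive against Nurr1 positive cells gave 0 of 21 (0.0158% of all genes), a median of -0.42 and 3 members at an unadjusted p under 0.05, where 5.09% of all genes were. Those were Col4a1 (-2.43, adjusted p 0.927), Col5a2 (-1.45, 0.970) and Col9a2 (1.02, 0.953), followed by Col4a2 (-1.59) and Col8a2 (-1.44) on the lower and Col7a1 (0.46) on the higher side.

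Pitx3 positive against Hes5 positive cells gave the 1 call of Col4a5, a median of -0.79 (13 lower, 8 higher) and 6 members at an unadjusted p under 0.05, where 25.1% of all genes were. After Col4a5 the lowest were Col2a1 (-1.99, adjusted p 0.0762), Col5a1 (-1.92, 0.122) and Col18a1 (-1.84, 0.221). The highest were Col7a1 (1.19, 0.101), Col8a1 (0.72), Col1a1 (0.65) and Col9a2 (0.46). Without Pitx3 positive replicate 1 the count was 6, which added Col2a1, Col5a1, Col16a1, Col18a1 and Col23a1. How many of all genes that fit called is not given. The comparisons share arrays and are not independent of each other.

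Between the negative fractions of the lines no collagen chain was called. Nurr1 against Hes5 negative cells, Pitx3 against Nurr1 negative cells and Pitx3 against Hes5 negative cells each gave 0 of 21 members called in limma and 0 at an unadjusted p under 0.05, where 0.0553%, 0.0158% and 0.0632% of all genes were called and 6.48%, 3.73% and 8.25% lay under the unadjusted p. The medians were -0.18, -0.07 and -0.26. The largest differences were 1.06 for Col5a2 and -0.92 for Col1a1 in the first, -1.23 for Col4a1 and 0.71 for Col9a2 in the second, and -1.20 for Col8a2 and 0.46 for Col5a2 in the last. The standard errors of these differences were 0.41 to 1.01.

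The sort effects were compared between lines by their differences. The Nurr1 minus Hes5 difference gave 0 of 21 members called in the fit of group means (0.0079% of all genes) and 0 in the paired fit (0%). At an unadjusted p under 0.05 the fit of group means held 0 members, where 3.99% of all genes were. The paired fit held 6 members under that p, 4 lower and 2 higher, where 15.1% of all genes were. The extremes were Col2a1 (-1.64, paired adjusted p 0.110) and Col6a3 (1.82, 0.367). The Pitx3 minus Nurr1 difference gave 0 of 21 in both fits, where 0% of all genes were called, with Col6a1 (-1.26) and Col7a1 (0.51) at the ends and paired adjusted p values of 0.999. The Pitx3 minus Hes5 difference gave 0 of 21 in the fit of group means (0.0553% of all genes), and 2 members at an unadjusted p under 0.05, where 7.8% of all genes were. The paired fit held 8 members under that p, 7 lower and 1 higher, where 21.1% of all genes were, and called Col2a1 alone. Next came Col7a1 (1.60) and Col4a5 (-2.37, paired adjusted p 0.0612), while Col1a1 (1.55, 0.331) and Col3a1 (0.304, with no size since Hes5 positive cells were not above background) were further from the threshold. A larger drop of Col1a1 and Col3a1 in the Hes5 than in the Pitx3 sort was therefore not shown.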

How the data were processed

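Gene expression was measured on 18 Illumina mouse bead arrays, 3 in each of 6 sorted groups, grouped by their titles and genotypes. For 45281 probes without gene names, the deposited scanner table lists a linear bead intensity and a detection p-value, per the file headers. The authors' value table holds log2 intensity for 31441 genes, and set against the scanner table it equals the log2 of a single probe, or of several probes averaged, not normalized between arrays. GenomeStudio and Partek are named in the submitters' processing notes. A gene was tied to the probes whose intensities give a gene's deposited log2 values in all 18 arrays, for 30341 genes (96.5%), 0 of them with more than 1 match, and 0 of 300 shuffled value sets matched. Symbols were updated through RefSeq names (12583 matched as symbols, 5479 as synonyms, 12279 kept as deposited). A further 36 columns of per-sample values were not used.

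Intensities were background-corrected and quantile normalized by neqc of limma 3.58.1 in R 4.3.3, at an offset of 16 and with data.table version 1.17.8. Python 3.11.15, numpy 2.4.6, pandas 2.3.3, numba 0.67.0 and matplotlib 3.10.9 served for matching and plots. The filter on dim probes kept 18737, of which 2478 had no gene and were left out. The remaining probes gave 12659 genes, where the probe of highest mean stood for a gene with several. Summed marker levels are linear. Limma was fitted to 6 group means (12 residual degrees of freedom) and, as the paired fit, with a block for each replicate number of each line (6 residual degrees of freedom). Fractions of equal number deviated from their group means together (r 0.439 to 0.772 in 9 pairs, against -0.637 to 0.172 for other numbers), so the numbers pair them. The labels do not state what a number marks. The fits were tested on simulated data. The number of arrays limits the precision. A bound ("at least") sets the brighter group against the higher of the dim probe's own level and the lowest level above background.

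Members and gene lists were chosen with earlier results of these data known. The text names Col1a1, Col3a1 and the type IV chains, every member called in either fit, the 4 largest differences each way per comparison among members above background in at least 2 of 3 arrays of the brighter group, up to 3 called genes of each other list, and Lum, Dcn, Postn, Thy1 and Pdgfra. Promoter sequences are RefSeq's (GRCm38.p6).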

Additional observations from a re-analysis of the deposited data

Results flagged for a closer look

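The difference of the sort effects of Col2a1 between lines is listed because it passed its own test. Positive minus negative cells differed by -1.45 in the Pitx3 line and by 0.28 in the Hes5 line, and the Pitx3 minus Hes5 difference was -1.72 on the log2 scale. Its adjusted p was 0.0427 in limma's paired fit and 0.717 in the fit of group means.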

How the results depend on the processing

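The count of collagen chain genes called was recomputed under 7 other ways of processing, with the replicate block, and without each of the 18 arrays or 9 pairs. With the replicate block the count was 9 in the Pitx3 sort (0 in the fit of group means) and 1 in the Pitx3 minus Hes5 difference of sort effects (0), and the block changed the count in no other sort or difference of sorts. Between Pitx3 positive and Hes5 positive cells the count was 0 with no filter on dim probes and 0 with only the arrays compared, against 1, since Col4a5 then had adjusted p values of 0.0813 and 0.165. No filter means more genes tested, and fewer arrays leave a spread estimated from less data. Without 1 array the count ran from 0 to 4 in the Pitx3 sort, from 0 to 6 between Pitx3 and Hes5 positive cells, from 0 to 1 in the Pitx3 minus Hes5 difference, and stayed at 0 in the other 9 comparisons. Without 1 pair in the paired fit it ran from 0 to 4 in the Hes5 sort, 0 to 2 in the Nurr1 sort, 0 to 10 in the Pitx3 sort and 0 to 5 in the Pitx3 minus Hes5 difference, and was 0 in the other differences. Shares of all genes called without an array or a pair are not given beside these counts. In the Nurr1 sort Col2a1 and Col18a1 were called without Hes5 pair 1 and without Pitx3 pair 1, and Col2a1 without Hes5 pair 2. In the Pitx3 minus Hes5 difference the 5 came without Pitx3 pair 1, and without Nurr1 pair 1 there were 2. The cause was not tested. Over 252 gene results of the fit of group means and 7548 alternatives, 0 called results reversed, 96 gained and 6 lost a call, and 331 uncalled ones changed sign. Losses of the paired calls are not in that count. Without 1 of the 9 pairs, each of the 9 paired Pitx3 calls held in 5 to 7 fits. The paired call of the Col2a1 difference of sort effects held in 1. Leaving out pairs was extended to the genes of the other lists after the data were seen. The value table as deposited shifted the median of all genes by up to -0.189.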
